A study of Homo sapiens with 6 samples.

Results

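Hepatokines are hormone-like proteins that the liver releases into the blood, and several of them are also released when cells are under nutrient, iron or protein-folding stress. The 9 genes described here encode such secreted factors: the iron hormone hepcidin (HAMP), the stress cytokine GDF15, the cytokine-like protein FAM3C, the activin E subunit INHBE, the endocrine fibroblast growth factors FGF19 and FGF21, the lipase inhibitors ANGPTL4 and ANGPTL8, and the leukocyte chemotactic factor LECT2. They were chosen by name, with earlier results of these data known. All 9 were measured among 33616 named genes, each by 1 probe set. In these cells 2 of them, HAMP and GDF15, were lower after UHMK1 siRNA, 1, FAM3C, was higher, and 6 did not pass the test.

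The samples were taken 24 h after lipofection of HepG2, a line grown from a human liver tumour that retains many hepatocyte traits, with 30 nM siRNA. One group received an siRNA specific for UHMK1 and the other a scrambled siRNA, with 3 arrays each. UHMK1 is a kinase that carries a U2AF homology motif, a domain typical of splicing proteins. The labels name 1 cell line and 1 siRNA condition against UHMK1, so an effect of lost UHMK1 and any other effect of that siRNA cannot be told apart, and they do not tell separate cultures from repeats of one culture. The p-values therefore measure only how much these arrays vary, which may be technical variation.

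Values are RMA expression levels on a log2 scale, so a difference of 1 is a 2-fold change on the deposited scale. A gene was said to rise or fall where limma's p-value, adjusted by the Benjamini-Hochberg method over all named genes, was under 0.05. UHMK1 itself stood at 8.36, 7.80 and 7.94 after UHMK1 siRNA and at 11.42, 11.24 and 11.74 after scrambled siRNA, a change of -3.43 (SE 0.20, adjusted p = 0.000112). The 6 hepatocyte or HepG2 markers (ALB, APOA1, AFP, TTR, SERPINA1 and APOB) had mean levels between 15.03 and 19.10 and 0 of them changed in limma, with 0 at an unadjusted p under 0.05. Of 19 measured markers of immune, endothelial, fibroblast or stellate, and biliary cells 0 changed in limma, with 1 immune and 1 stellate marker at an unadjusted p under 0.05. The summed level of the 5 immune markers was lower on every UHMK1 siRNA array (45.4 to 45.7) than on any scrambled siRNA array (46.0 to 47.0). Among them LYZ (-0.48), CD68 (-0.31) and CD3E (-0.22) had groups that did not overlap, and PTPRC, which defines leukocytes, stood at 5.11 after UHMK1 siRNA and 4.97 after scrambled siRNA. The part of these markers in the results below was not tested. The summed levels of the other lists overlapped between the groups: 20.8 to 21.8 after UHMK1 siRNA and 21.0 to 22.6 after scrambled siRNA for endothelial, 36.9 to 37.7 after UHMK1 siRNA and 36.3 to 37.4 after scrambled siRNA for fibroblast or stellate, and 48.5 to 48.9 after UHMK1 siRNA and 48.5 to 49.1 after scrambled siRNA for biliary markers. UHMK1 siRNA array 2 stood apart from the others: relative to the mean of the scrambled siRNA arrays, the median of 8861 bright genes (mean level above 8) was -0.25 there, and -0.03 and -0.06 on UHMK1 siRNA arrays 1 and 3. Results are therefore also given without it where it mattered.

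Among all named genes 0.726% rose and 2.67% fell, 3.39% in all. Of the 9 secreted factors 1 rose and 2 fell, at a median change of -0.15 against -0.02 over all named genes. The UHMK1 siRNA and scrambled siRNA arrays did not overlap for the same 3 factors, a pattern found in 21.0% of all named genes. Because the factors were chosen with earlier results of these data known, these counts are descriptions.

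**Figure D1:**
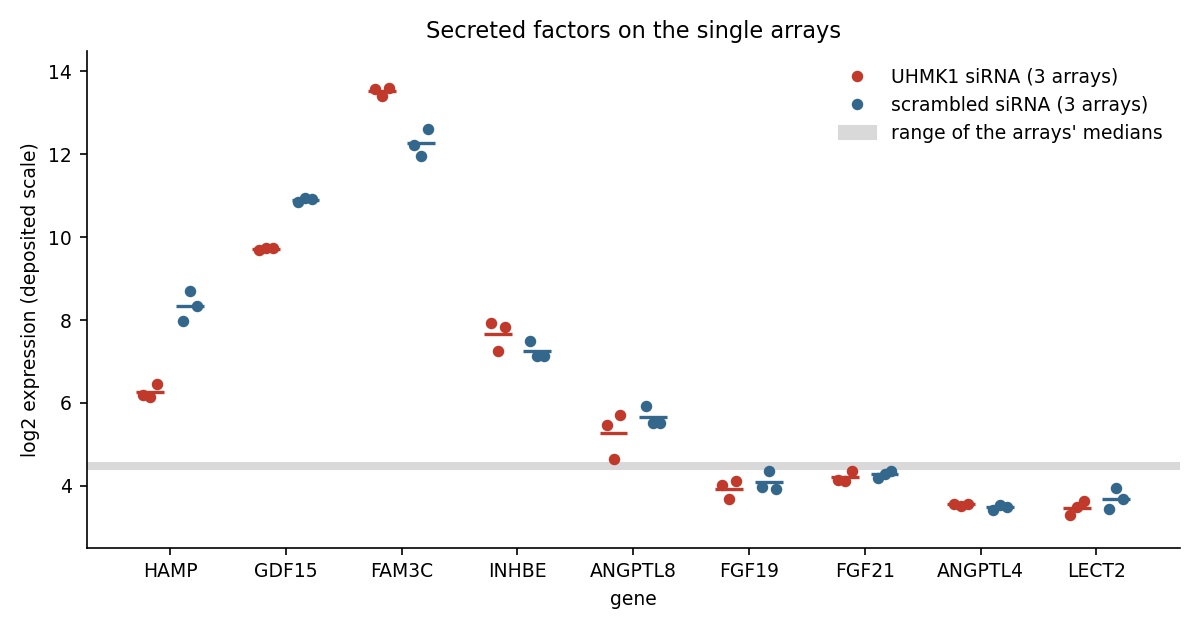
Level of each of the 9 secreted factors on every array (y axis, log2 expression on the deposited scale), with UHMK1 siRNA arrays in red to the left of scrambled siRNA arrays in blue. Points are single arrays, short lines are group means (n = 3 each), and the grey band spans the medians of the 6 arrays over all probe sets (4.40 to 4.55). The groups are separate for HAMP, GDF15 and FAM3C, and 4 factors lie below the band. Levels of different genes come from different probes and are not comparable with each other.

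HAMP encodes hepcidin, the liver hormone that binds the iron exporter ferroportin and causes its degradation, and so lowers iron release into plasma. Its transcription in hepatocytes is known to be driven by bone morphogenetic protein (BMP) signals through SMAD proteins and by interleukin-6 through STAT3. HAMP stood at 6.20, 6.15 and 6.45 after UHMK1 siRNA and at 7.98, 8.69 and 8.33 after scrambled siRNA. The highest UHMK1 siRNA array lay 1.53 below the lowest scrambled siRNA array. The mean was 6.27 ± 0.16 after UHMK1 siRNA and 8.33 ± 0.36 after scrambled siRNA (SD, n = 3 each). HAMP thus fell by 2.07 on the log2 scale (SE 0.20, 95% confidence interval -2.52 to -1.61, limma adjusted p = 0.00136). On the deposited scale the level was 4.19-fold lower (95% confidence interval 3.06 to 5.74) and 23.9% of that after scrambled siRNA. It was the 40th largest fall of the 33616 genes, a rank that ignores error. In a cell population, fewer cells that express a gene and less RNA of it per cell cannot be told apart. With any 1 array left out the change lay between -2.24 and -1.89 and passed each time (limma adjusted p between 0.00412 and 0.0120).

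The promoter of HAMP is shown because both regulatory inputs named above act through known elements close to the gene's start. The 250 bases before the start are given 5′ to 3′ from RefSeq (GRCh38.p14, chr19:35282278-35282527, plus strand), with matches to GGCGCC, the core of the BMP response element, and to TTCNNNGAA, a STAT site, in capitals.
HAMP: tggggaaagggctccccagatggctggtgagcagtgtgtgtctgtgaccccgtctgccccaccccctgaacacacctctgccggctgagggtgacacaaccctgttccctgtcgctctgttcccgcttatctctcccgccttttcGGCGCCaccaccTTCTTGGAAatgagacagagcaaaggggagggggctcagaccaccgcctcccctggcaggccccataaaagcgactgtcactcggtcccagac
The GGCGCC match lies 105 to 100 bases upstream of the start and the STAT match, TTCTTGGAA, 93 to 85 bases upstream, so the 2 do not overlap. On either strand GGCGCC is found in 16.4% and TTCNNNGAA in 6.57% of the 35116 windows of this length in the promoter table. A match is a description of the sequence, and no binding was measured here.

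Genes of hepcidin regulation and iron handling moved in both directions. Of 20 measured, 1 rose and 2 fell, with 11 changes below 0 and a median of -0.01, against -0.02 over all named genes. ID1, an inhibitor of DNA binding and a direct target of BMP and SMAD signals, had levels of 12.49, 12.26 and 12.11 after UHMK1 siRNA and of 14.14, 14.61 and 14.42 after scrambled siRNA. The groups did not overlap, and ID1 fell by 2.10 (SE 0.18, limma adjusted p = 0.000766), 4.30-fold on the deposited scale. SMAD5, one of the SMAD proteins that BMP receptors phosphorylate, fell by 0.68 (SE 0.14, limma adjusted p = 0.0354), whereas IL6ST, the gp130 signalling subunit of the interleukin-6 receptor, rose by 0.79 (SE 0.14, limma adjusted p = 0.0152). ID1 passed with any 1 array left out (-2.23 to -1.99), but SMAD5 (-0.72 to -0.62) and IL6ST (0.78 to 0.80) passed only without UHMK1 siRNA array 2 and lost their call in each of the other 5 fits with 1 array left out.

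Other genes of the hepcidin pathway are named after their values were seen. SMAD6 and SMAD7, inhibitory SMADs that BMP signals are also known to induce, stood at 0.02 (95% confidence interval -0.37 to 0.41) and 0.02 (95% confidence interval -0.35 to 0.38), with overlapping groups. SMAD4 stood at -0.41 (limma adjusted p = 0.27) with groups that did not overlap, and SMAD1 at -0.37 (limma adjusted p = 0.538) with groups that did. STAT3 stood at -0.52 (limma adjusted p = 0.283) and the transferrin receptor TFR2 at 0.37 (limma adjusted p = 0.333), both without overlap between groups. UHMK1 siRNA array 2 was the lowest array for SMAD4, SMAD1 and STAT3. After UHMK1 siRNA the levels were 12.19, 11.77 and 12.12 for SMAD4, 9.38, 8.54 and 9.43 for SMAD1, and 11.97, 11.15 and 11.75 for STAT3. The scrambled siRNA means were 12.44, 9.49 and 12.14, so these changes are smaller without that array. The BMP ligand BMP6 (5.03 in both groups), the BMP co-receptor HJV (3.36 after UHMK1 siRNA and 3.38 after scrambled siRNA) and HFE (3.99 after UHMK1 siRNA and 4.19 after scrambled siRNA) had low values, with those of HJV and HFE under the medians of the arrays. Ferroportin, SLC40A1, the target of hepcidin, had levels of 11.88, 11.05 and 11.42 after UHMK1 siRNA and of 10.36, 10.53 and 10.64 after scrambled siRNA. The groups did not overlap, but its change of 0.94 (95% confidence interval 0.45 to 1.43) did not pass (limma adjusted p = 0.0511). SLC40A1 passed without UHMK1 siRNA array 2 (1.14, limma adjusted p = 0.0237). With all 6 arrays it also passed after quantile normalization (limma adjusted p = 0.0298), after cyclic loess normalization (0.0261), with the filter on dim genes (0.0250) and with an intensity trend and robust prior (0.0210).

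GDF15 is a distant member of the transforming growth factor beta family that signals through GFRAL and RET in the hindbrain. Its transcription is known to be induced by p53 and, under amino acid or protein-folding stress, by ATF4 and its partner CHOP. GDF15 stood at 9.70, 9.74 and 9.73 after UHMK1 siRNA and at 10.86, 10.95 and 10.91 after scrambled siRNA. Arrays within a group were close to each other and the groups were 1.12 apart. The mean was 9.72 ± 0.02 after UHMK1 siRNA and 10.91 ± 0.05 after scrambled siRNA (SD, n = 3 each), so that GDF15 fell by 1.18 (SE 0.14, 95% confidence interval -1.49 to -0.88, limma adjusted p = 0.00247). That is 2.27-fold lower on the deposited scale (95% confidence interval 1.84 to 2.81), or 44.0% of the level after scrambled siRNA. The moderated SE is larger than the array spread alone gives, because limma draws the variance of each gene towards that of all genes. Among the named genes the fall of GDF15 was the 304th largest, a rank that ignores error. The change lay between -1.21 and -1.16 with any 1 array left out and passed each time.

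The promoter of GDF15 is shown beside that of HAMP as the other secreted factor that fell. The 250 bases before its start are from RefSeq (GRCh38.p14, chr19:18385908-18386157, plus strand), 5′ to 3′, with GC boxes (GGGCGG on either strand) in capitals.
GDF15: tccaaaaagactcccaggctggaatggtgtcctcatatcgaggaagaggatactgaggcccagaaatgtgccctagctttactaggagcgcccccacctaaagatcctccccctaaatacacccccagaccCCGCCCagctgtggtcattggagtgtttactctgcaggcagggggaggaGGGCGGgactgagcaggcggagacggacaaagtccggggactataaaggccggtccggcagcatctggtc
The window holds 2 GC boxes, 119 to 114 and 70 to 65 bases upstream, and 42.6% of the 35116 windows hold at least 1. It holds no match to GGCGCC or TTCNNNGAA, so the HAMP and GDF15 windows share none of the searched motifs. It also holds no match to TGATGNAAN, the C/EBP-ATF response element bound by ATF4, or to TGACGT, a cAMP response element core. Only these 250 bases were searched, so elements elsewhere would be missed, and no p53 site was among the searched motifs. Of the 7 secreted factors in the promoter table, LECT2, ANGPTL8 and FGF21 hold TGATGNAAN, which 3.13% of all windows hold, and 0 hold TGACGT, which 7.10% hold. FAM3C and HAMP hold GGCGCC.

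Genes of the integrated stress response, the programme through which ATF4 acts, had 1 rise and 0 falls among 19 measured. Their median was 0.17, against -0.02 over all named genes, and 12 of the 19 changes were above 0. NUPR1, a stress-induced nuclear protein, had levels of 11.71, 11.93 and 11.94 after UHMK1 siRNA and of 10.47, 10.31 and 10.51 after scrambled siRNA. It rose by 1.43 (SE 0.15, limma adjusted p = 0.00175), with no overlap between groups, and passed with any 1 array left out (1.37 to 1.50). GDF15 thus moved in the opposite direction to NUPR1. Several others are named after their values were seen. The asparagine synthetase ASNS stood at 0.88 (limma adjusted p = 0.0503), ATF4 itself at 0.41 (limma adjusted p = 0.219) and TRIB3 at 0.18 (limma adjusted p = 0.675). PHGDH (0.71), SLC7A11 (0.72) and VLDLR (0.76) did not pass either. The groups of ASNS, ATF4, PHGDH, SLC7A11 and VLDLR did not overlap. XBP1 (-0.45), HSPA5 (-0.34) and CEBPG (-0.18) were lower, also without overlap between groups, and did not pass. At an unadjusted p under 0.05 in limma there were 7 of the 19, 6 of them higher and XBP1 lower. Over all named genes there were 5132, with 1751 higher. DDIT3, which encodes CHOP, stood at 0.08 (95% confidence interval -0.53 to 0.69) and ATF3 at -0.12 (95% confidence interval -0.50 to 0.25), both with overlapping groups. DDIT3 had levels of 6.56, 5.43 and 6.36 after UHMK1 siRNA and of 6.13, 6.04 and 5.94 after scrambled siRNA. Its overlap came from UHMK1 siRNA array 2 alone, since UHMK1 siRNA arrays 1 and 3 lay above every scrambled siRNA array. ASNS passed without UHMK1 siRNA array 2 (1.08, limma adjusted p = 0.0175). With all 6 arrays ASNS also passed after quantile (limma adjusted p = 0.0288) or cyclic loess normalization (limma adjusted p = 0.0246). The same held with the dim-gene filter (limma adjusted p = 0.0243) and with the trend and robust prior (limma adjusted p = 0.0186). The number of rises in this list thus depends on the setting, whereas NUPR1 passed in each of them.

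FAM3C, also known as ILEI, is a secreted cytokine-like protein studied in epithelial-mesenchymal transition and, in mice, in the control of liver glucose output. FAM3C stood at 13.57, 13.40 and 13.60 after UHMK1 siRNA and at 12.23, 11.95 and 12.62 after scrambled siRNA. The lowest UHMK1 siRNA array was 0.78 above the highest scrambled siRNA array. The mean was 13.52 ± 0.11 after UHMK1 siRNA and 12.27 ± 0.34 after scrambled siRNA (SD, n = 3 each), so that FAM3C rose by 1.26 (SE 0.19, 95% confidence interval 0.83 to 1.69, limma adjusted p = 0.00892). This is 2.39-fold on the deposited scale (95% confidence interval 1.77 to 3.22). It was the 43rd largest rise among the named genes, again without regard to error. With 1 array left out the change lay between 1.10 and 1.43, and the adjusted p in limma between 0.0142 and 0.0499, the highest being without scrambled siRNA array 1.

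The probe set named FAM3C2P, after a pseudogene copy of FAM3C on the X chromosome, moved with it. It stood at 12.01, 12.37 and 12.28 after UHMK1 siRNA and at 10.76, 10.33 and 10.97 after scrambled siRNA, a rise of 1.53 (SE 0.20, limma adjusted p = 0.00417). Probes of near-identical copies can bind both transcripts, so these are not independent observations. Among the other FAM3 genes FAM3B, a cytokine-like protein also called PANDER, had levels of 11.27, 11.10 and 10.95 after UHMK1 siRNA and of 10.11, 9.80 and 10.27 after scrambled siRNA. FAM3B rose by 1.05 (SE 0.17, limma adjusted p = 0.0133), and lost its call without scrambled siRNA array 1 (1.07) or 2 (0.92) or UHMK1 siRNA array 1 (0.96). FAM3A (0.04, 95% confidence interval -0.37 to 0.45) and FAM3D (-0.16, 95% confidence interval -0.60 to 0.28), named after their values were seen, had overlapping groups.

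**Figure D2:**
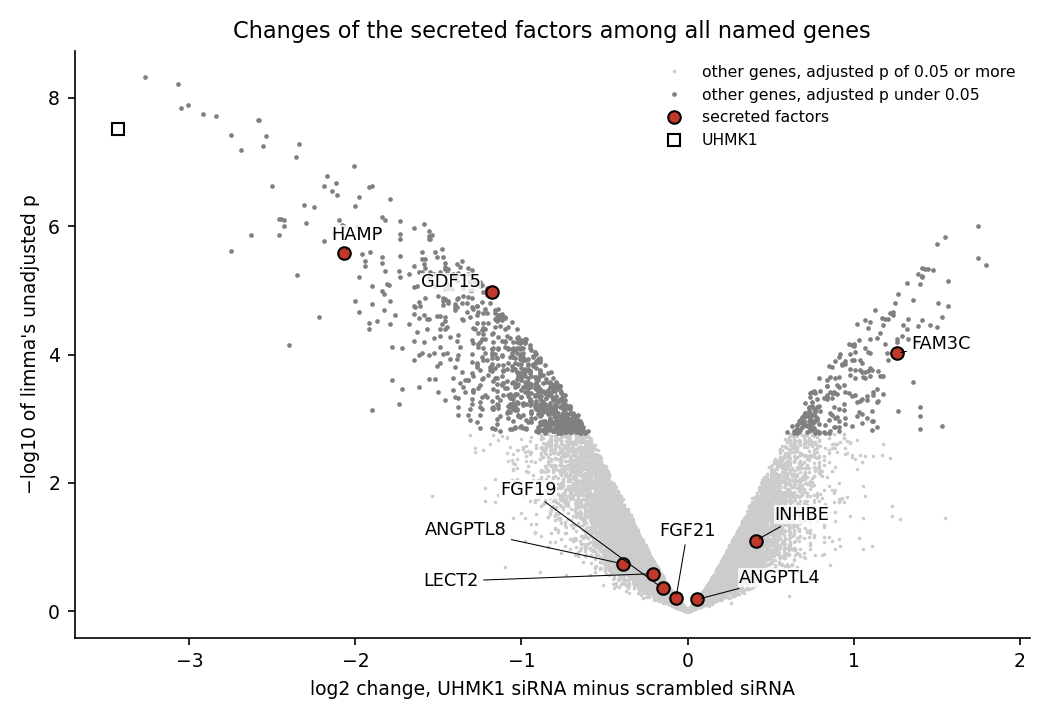
Change of each named gene (x axis, log2, UHMK1 siRNA minus scrambled siRNA) against the strength of evidence (y axis, −log10 of limma's unadjusted p), with the 9 secreted factors in red, UHMK1 as an open square, genes at an adjusted p under 0.05 in dark grey and the rest in light grey. HAMP (-2.07), GDF15 (-1.18) and FAM3C (1.26) lie among the dark points, and the other 6 lie near the bottom between -0.39 and 0.41.

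INHBE encodes the beta E subunit of the activins, which is made mainly by hepatocytes and has been linked to fat storage. INHBE stood at 7.93, 7.25 and 7.83 after UHMK1 siRNA and at 7.49, 7.14 and 7.14 after scrambled siRNA. The groups overlapped, since UHMK1 siRNA array 2 lay below scrambled siRNA array 1. The mean was 7.67 ± 0.37 after UHMK1 siRNA and 7.26 ± 0.20 after scrambled siRNA (SD, n = 3 each), a change of 0.41 (95% confidence interval -0.06 to 0.89) that did not pass (limma adjusted p = 0.405). Without UHMK1 siRNA array 2 the change was 0.62 and still did not pass (limma adjusted p = 0.117).

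Of the 9 measured activin and FAM3 family relatives 1 rose, FAM3B above, and 1 fell, at a median of 0.24. The one that fell was FST, which encodes follistatin, a secreted protein that binds activins and is itself released by the liver. FST stood at 7.85, 7.34 and 7.73 after UHMK1 siRNA and at 8.98, 9.14 and 8.88 after scrambled siRNA, so the groups did not overlap. It fell by 1.36 (SE 0.18, limma adjusted p = 0.00419), 2.57-fold, and passed with any 1 array left out (-1.47 to -1.21). INHBC, the liver-expressed beta C subunit, stood at 0.79 (limma adjusted p = 0.0581) with groups that did not overlap, and INHBA, the beta A subunit, at -0.35 (limma adjusted p = 0.477) with groups that did. Both are named after their values were seen. INHBC passed with the filter on dim genes (limma adjusted p = 0.0279) and with the trend and robust prior (limma adjusted p = 0.0331).

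FGF19 and FGF21 are endocrine fibroblast growth factors that signal through FGF receptors together with the co-receptor beta-klotho. FGF19 is known as a bile acid-induced brake on bile acid synthesis and FGF21 as a hormone of fasting and amino acid shortage. FGF19 stood at 4.01, 3.67 and 4.11 after UHMK1 siRNA and at 3.97, 4.36 and 3.91 after scrambled siRNA, a change of -0.15 (95% confidence interval -0.57 to 0.27, limma adjusted p = 0.786). FGF21 stood at 4.13, 4.11 and 4.36 after UHMK1 siRNA and at 4.18, 4.29 and 4.35 after scrambled siRNA, a change of -0.07 (95% confidence interval -0.41 to 0.26, limma adjusted p = 0.879). The groups overlapped for both, and both means lie below the median of all probe sets on each array. Changes may be compressed at such low values, so these intervals describe the deposited scale and do not bound the change in RNA.

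KLB, which encodes beta-klotho, had levels of 13.19, 13.12 and 13.00 after UHMK1 siRNA and of 11.92, 11.84 and 12.27 after scrambled siRNA. The groups did not overlap, and KLB rose by 1.09 (SE 0.16, limma adjusted p = 0.00871), 2.13-fold. It lost its call without scrambled siRNA array 1 (1.05) or 2 (1.01), at adjusted p up to 0.0523 in limma. FGFR4, its main partner in hepatocytes and named after its values were seen, stood at -0.30 (95% confidence interval -0.67 to 0.07, limma adjusted p = 0.443). FGFR1 (-0.51), FGFR2 (-0.43), FGFR3 (0.27) and KL (-0.11), also named after their values were seen, did not pass either. Of the 18 receptors, co-receptors and direct targets of the secreted factors, all measured, 2 rose and 1 fell, at a median of -0.06. Besides KLB, LIFR, a receptor reported for FAM3C, rose by 0.91 (SE 0.18, limma adjusted p = 0.0292). MET, the hepatocyte growth factor receptor that LECT2 is reported to bind, fell by 0.98 (SE 0.17, limma adjusted p = 0.0145). LIFR kept its call only without scrambled siRNA array 3 (1.04) among the 6 fits that leave 1 array out (0.74 to 1.04), and MET kept it only without UHMK1 siRNA array 1 (-1.11) or 2 (-0.92). GFRAL (4.07 after UHMK1 siRNA and 4.28 after scrambled siRNA) and RET (3.91 after UHMK1 siRNA and 4.01 after scrambled siRNA), the receptor pair of GDF15, lay under the medians of the arrays and are named after their values were seen.

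ANGPTL4 and ANGPTL8 are angiopoietin-like proteins that restrain lipoprotein lipase, ANGPTL4 in fasting and ANGPTL8 after feeding. ANGPTL4 stood at 3.56, 3.52 and 3.56 after UHMK1 siRNA and at 3.42, 3.54 and 3.49 after scrambled siRNA, a change of 0.06 (95% confidence interval -0.25 to 0.37, limma adjusted p = 0.889). ANGPTL8 stood at 5.47, 4.64 and 5.70 after UHMK1 siRNA and at 5.93, 5.52 and 5.52 after scrambled siRNA. The groups overlapped for both genes, and the lowest value of ANGPTL8 was that of UHMK1 siRNA array 2. Its change of -0.39 (95% confidence interval -0.99 to 0.22, limma adjusted p = 0.570) was -0.07 without that array. LECT2, a chemotactic protein of hepatocytes, stood at 3.30, 3.48 and 3.63 after UHMK1 siRNA and at 3.43, 3.94 and 3.68 after scrambled siRNA. These groups overlapped too, at a change of -0.21 (95% confidence interval -0.62 to 0.19, limma adjusted p = 0.652). Like FGF19 and FGF21, ANGPTL4 and LECT2 had means under the median of all probe sets on each array.

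**Figure D3:**
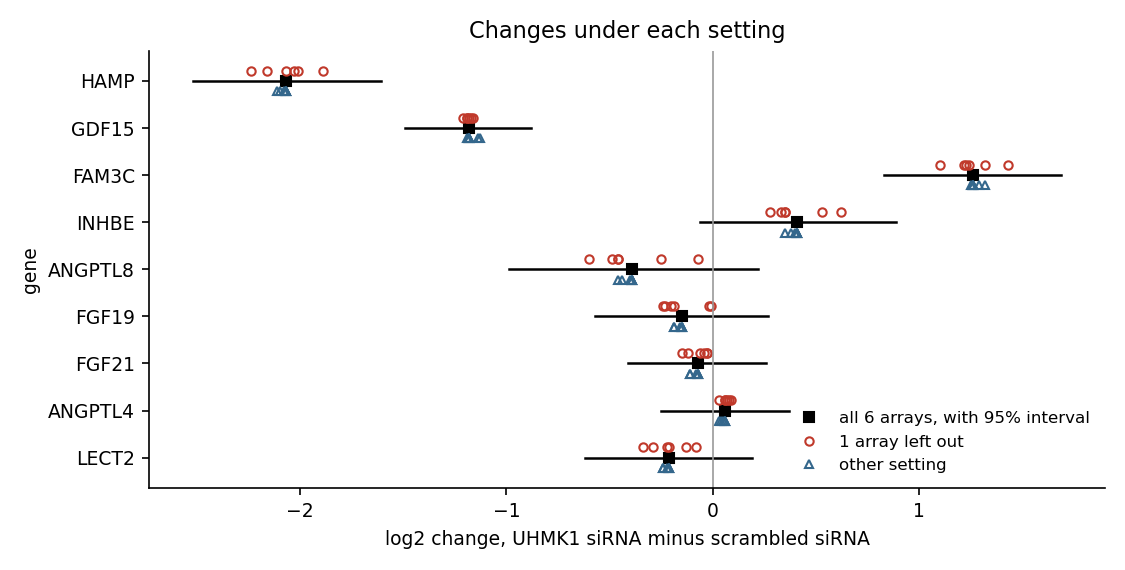
Change of each secreted factor (x axis, log2, UHMK1 siRNA minus scrambled siRNA) with all 6 arrays (black squares, lines are 95% confidence intervals), with 1 array left out (red circles) and under other normalizations, filters, variance priors, probe set rules or a replicate block (blue triangles). HAMP stays between -2.24 and -1.89, GDF15 between -1.21 and -1.13 and FAM3C between 1.10 and 1.43, whereas the intervals of the other 6 include 0.

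Genes that control triglyceride lipases had 0 calls among 9 measured in limma, with a median of 0.23. APOC3, an inhibitor of triglyceride clearance, stood at 0.63 (limma adjusted p = 0.118), and MLXIPL, the glucose-responsive factor ChREBP, at 0.52 (limma adjusted p = 0.266). At an unadjusted p under 0.05 there were 4, 3 of them higher. With the intensity trend and robust prior APOC3 passed (limma adjusted p = 0.0360). Among 14 measured genes of PPARA and FXR signalling, nuclear receptor pathways that are known to act on FGF21, ANGPTL4 and FGF19, 1 rose and 3 fell, at a median of 0.05. PLIN2, a lipid droplet coat protein, had levels of 13.08, 12.76 and 12.84 after UHMK1 siRNA and of 14.44, 14.41 and 14.36 after scrambled siRNA. It fell by 1.51 (SE 0.15, limma adjusted p = 0.00147), but the mean of its 2 probe sets changed by -0.50 (limma adjusted p = 0.174). The other probe set of PLIN2 thus did not fall. SLC51B, the beta subunit of a bile acid exporter, fell by 1.56 (SE 0.27, limma adjusted p = 0.0155), and the bile acid repressor NR0B2 fell by 1.27 (SE 0.21, limma adjusted p = 0.0120). CREB3L3, a liver transcription factor that is known to induce HAMP and FGF21 in mice, had levels of 9.29, 9.15 and 9.65 after UHMK1 siRNA and of 7.77, 7.72 and 8.51 after scrambled siRNA. CREB3L3 rose by 1.36 (SE 0.24, limma adjusted p = 0.0167), in the opposite direction to HAMP.

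The calls of these genes rested on single arrays to different degrees. PLIN2 passed with any 1 array left out (-1.60 to -1.44). SLC51B lost its call without scrambled siRNA array 1 (-1.49) or 2 (-1.44) or UHMK1 siRNA array 3 (-1.48), and NR0B2 without scrambled siRNA array 2 (-1.10) or 3 (-1.30). CREB3L3 passed only without scrambled siRNA array 3 (1.62) or UHMK1 siRNA array 2 (1.47), at changes between 1.22 and 1.62.

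Of 23 other liver-secreted hormones measured, 0 rose and 2 fell, and the median was -0.11. IGFBP1, an insulin-repressed binding protein of the insulin-like growth factors, had levels of 6.95, 7.68 and 7.59 after UHMK1 siRNA and of 8.65, 9.03 and 8.51 after scrambled siRNA. It fell by 1.32 (SE 0.23, limma adjusted p = 0.0156). MANF, a secreted protein of the endoplasmic reticulum stress response, fell by 0.78 (SE 0.17, limma adjusted p = 0.0408). IGFBP1 lost its call without scrambled siRNA array 1 (-1.36) or 2 (-1.17), while MANF passed only without UHMK1 siRNA array 2 (-0.85) among the 6 such fits (-0.86 to -0.65).

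**Figure D4:**
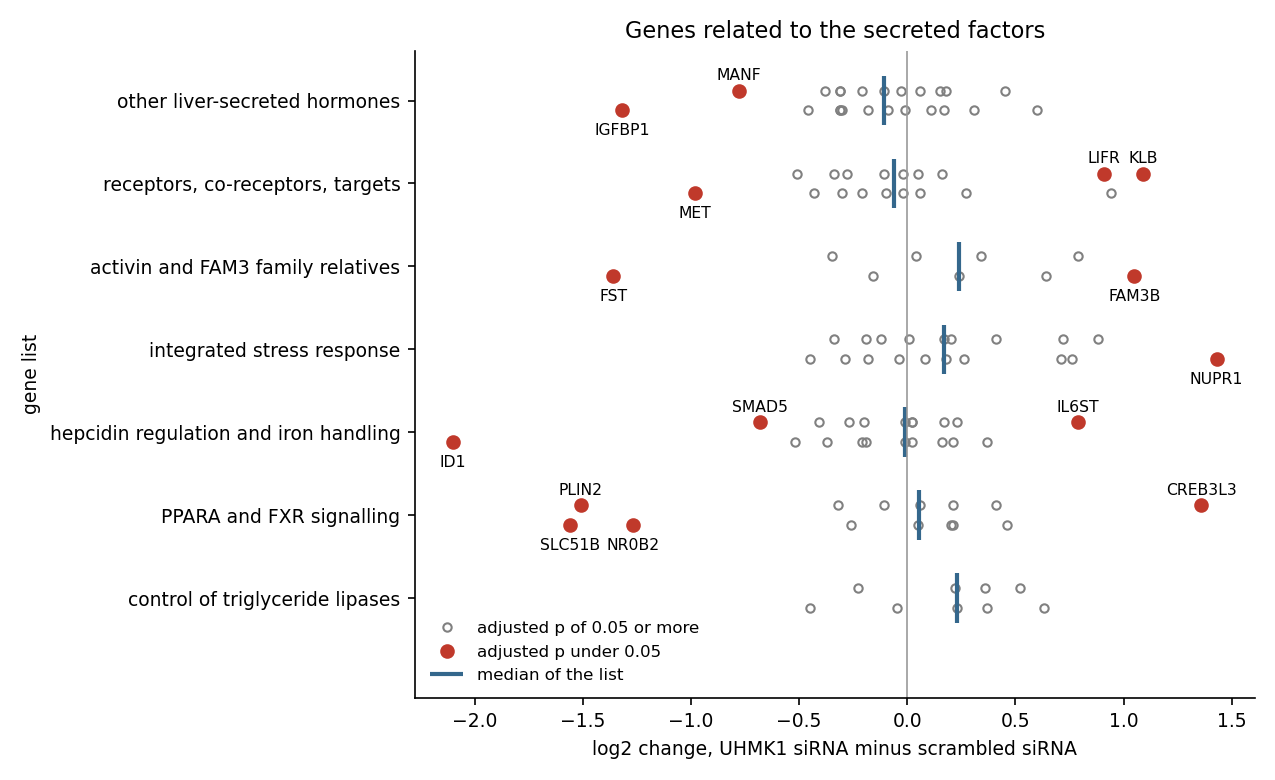
Change of each measured gene of 7 lists related to the secreted factors (x axis, log2, UHMK1 siRNA minus scrambled siRNA), with 1 list per line on the y axis. Filled red points passed at an adjusted p under 0.05 and are named, open points did not, and blue bars are list medians, which lie between -0.11 and 0.24. ID1 (-2.10) is the lowest and NUPR1 (1.43) the highest point.

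Over the 7 lists together 15 of 112 different genes passed, 6 higher and 9 lower. This is 13.4%, against 3.39% of all named genes and 6.17% of the 17992 with a mean level of at least 5, which include 94 of the 112. The split was 9 higher and 8 lower after quantile normalization and also after cyclic loess normalization. It was 12 higher and 9 lower both with the filter on dim genes and with the trend and robust prior. The lists were written from general knowledge with earlier results of these data known, so these shares are descriptions. FST, ID1, NUPR1 and PLIN2 passed with any 1 array left out, but PLIN2 did not pass with its probe sets averaged. The total was 5 without scrambled siRNA array 1, 4 without scrambled siRNA array 2, 10 without scrambled siRNA array 3, 9 without UHMK1 siRNA array 1 and 8 without UHMK1 siRNA array 3. Without UHMK1 siRNA array 2 it was 18, with 9 higher and 9 lower.

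The named genes nearest in pattern to the 3 factors that changed were found by the root mean square difference over the 6 arrays, each gene taken relative to its scrambled siRNA mean, among genes with a mean level of at least 5. Nearest to HAMP were FZD4, a Wnt receptor (difference 0.18, change -1.99), POMK, a kinase of the dystroglycan glycan (0.19, change -2.12), and GINS2 of the replicative helicase (0.20, change -1.92). Nearest to GDF15 were the nucleotide pyrophosphatase DCTPP1 (0.04, change -1.21), LSM6 of the U6 small nuclear ribonucleoprotein (0.06, change -1.25) and PAK1IP1 (0.07, change -1.24). Those nearest to FAM3C were PCYT1B of phosphatidylcholine synthesis (0.11, change 1.22), the organic anion transporter SLCO4C1 (0.12, change 1.30) and the transcription factor TBX2 (0.15, change 1.10). TBX2 lost its call without scrambled siRNA array 1 (1.05) or 2 (0.98) or UHMK1 siRNA array 1 (1.02). LSM6 has 2 probe sets, whose mean changed by -0.42, so its other probe set did not fall. The measure combines the size of the change with the array spread, and says nothing else about these neighbours. Those of HAMP were close mainly in size. The SD of the scrambled siRNA arrays was 0.36 for HAMP, 0.25 for FZD4, 0.08 for POMK and 0.10 for GINS2.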

How the data were processed

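RNA of 6 HepG2 samples was hybridised as biotin-labelled cRNA to Affymetrix arrays, per the labels' protocols. The deposited values are log2 expression levels for 135750 probe sets, made by the authors. Per the submitters' processing notes the tools were RMA and Transcriptome Analysis Console 4.0. Not given in the sources used here is the genome build of the probe sets. The values were used as deposited. Of the probe sets, 36176 carried exactly 1 gene symbol, 1119 carried several and 98455 were not listed. Symbols were updated by Entrez gene ID (24321 genes matched) to RefSeq GRCh38.p14, and 1576 genes with several probe sets were represented by that of the highest average across arrays, leaving 33616 genes.

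Groups were compared with limma 3.58.1 in R 4.3.3 (lmFit and eBayes, two-sided, no covariates), UHMK1 siRNA minus scrambled siRNA. The median residual SD was 0.222. The fit was tested on simulated data with independent noise for each gene. The simulation did not include the shift of UHMK1 siRNA array 2, so it says nothing about the effect of that shift. The number of arrays limits precision, and RMA can compress changes, above all near background.

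The 9 secreted factors and the 7 related lists were chosen with earlier results of these data known. Of each list, up to 6 genes past the threshold (otherwise the 2 with the smallest p) were named by rule, and the 3 genes nearest in pattern to each factor that changed. Promoter windows and motifs were read from RefSeq for 7 of the 9 factors; FGF19 and INHBE were not analysed here.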

Additional observations from a re-analysis of the deposited data

How the results depend on the processing

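HAMP, GDF15 and FAM3C kept direction and call under quantile, cyclic loess and median-centring normalization, a filter on dim genes, an intensity trend with a robust prior, averaging of probe sets, a replicate block and any 1 array left out. The filter on dim genes (mean of at least 5) removed FGF19, FGF21, ANGPTL4 and LECT2, which have no value there. Over all named genes 1141 passed. There were 1723 under the filter, 1685 with the trend, 722 with the replicate block and between 389 and 899 with 1 array left out. The related lists had 15 calls, between 4 and 18 with 1 array left out, and 21 under the filter and with the trend. The filter left fewer genes, and each fit with 1 array left out used fewer arrays. The cause of these differences in calls was not tested. The labels do not say whether the replicate numbers pair the samples. Deviations of arrays with the same number correlated at 0.05, 0.03 and -0.04 across genes. Those of arrays with different numbers correlated between -0.09 and 0.07, so no pairing was visible, which does not show that there was none. With the replicate block the 3 factors still passed (HAMP limma adjusted p = 0.00574, GDF15 0.0131, FAM3C 0.0146) and the lists had 12 calls. Of the list genes that passed, MANF lost its call under quantile and cyclic loess normalization (-0.72 and -0.73), IL6ST, SMAD5 and MANF under the replicate block, and PLIN2 with probe sets averaged (-0.50). SLC40A1 and ASNS gained a call under quantile and cyclic loess normalization, the filter and the trend, INHBC under the filter and the trend, and APOC3 under the trend. UHMK1 changed by -3.60 to -3.30 with 1 array left out. Factors near the lower end of the scale are limited by signal over background, which the deposited values do not give.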
